A study of Mus musculus with 6 samples.

Results

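The lysosome is the acid compartment in which cells break down glycogen, glycolipids, glycosaminoglycans and proteins. Most of its soluble hydrolases work best at low pH, which the V-ATPase, a rotary proton pump, sets up by pumping protons inward. The pump has a membrane sector (V0) and a cytosolic ATP-splitting sector (V1). Highly glycosylated membrane proteins line the compartment, and the transcription factors TFEB, TFE3 and MITF bind an E-box in the promoters of many of these genes. In obese visceral fat, lysosome-rich macrophages gather around dying adipocytes and take up their lipid.

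39 genes of this machinery were described, chosen by name with earlier results of these data known. They were 20 soluble hydrolases and their activators, 4 membrane proteins, the 3 transcription factors and 12 genes of the V-ATPase and its accessory proteins. A gene was represented by its array row with the highest mean among the rows whose annotation names that gene alone. This gave values for 38 of the 39 genes, out of 22180 genes with a row of their own on the array. The other, Glb1, shares its row with another gene and is not reported.

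RNA came from epididymal white adipose tissue of male C57BL/6 mice aged 8 months that had been on a high-fat diet for 21 weeks. The 3 Tg arrays are from mice with an adipose-specific Blnc1 transgene, whose promoter is not given in the sources used here, and the 3 WT arrays from wild-type mice on the same diet. Blnc1, a long noncoding RNA, is known for its part in the thermogenic programme of brown fat. The arrays of each group are labelled as biological replicates 1 to 3. Values are log2 signals, differences are Tg minus WT, and errors of differences are the standard error (SE) of the limma fit, with n = 3 per group throughout.

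The 6 measured adipocyte markers (Adipoq, Plin1, Cidec, Lep, Fabp4 and Lpl) all lay above the median signal of the array, as the tissue label says. 3 arrays carried clear signals of the neighbouring reproductive tract, and Tg 1 carried a trace of the epididymal gene Gpx5. In Tg 2 the epididymal lipocalin gene Lcn8 read 8.81, against 0.97 to 1.54 in the other 5 arrays. WT 2 and WT 3 read 6.58 and 8.09 for Serpina1f and 6.55 and 8.09 for Spink8, where the other 4 arrays lay between 1.16 and 2.53. In Tg 1 the epididymal gene Gpx5 read 3.22, against 10.77 in Tg 2, 0.97 in Tg 3 and 0.95 to 1.20 in WT. Adam7, another epididymal gene, read 2.44 in Tg 1, against 8.67 in Tg 2 and 1.07 in Tg 3, but 2.69 in WT 2. These genes other than Lcn8 were picked after their values were seen. Because of the tract signals, values from the arrays without the clear signals, WT 1, Tg 1 and Tg 3, are given beside the results. They rest on a single WT array, so they describe that mouse and do not test the genotype.

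The E-box core CACGTG, which reads the same on both strands, was looked for in RefSeq promoter windows (assembly GRCm38.p6, 250 bases before to 50 after each start site). 34 of the 39 genes had 41 windows, of which 11 (26.8%) held it, against 7.15% of all 32851 windows. In every one of these 11 windows at least 1 core had a T before it or an A after it, the TCACGTG form on one strand or the other, which contains the core and stood in 3.77% of all windows. Stretches are shown for 7 of the 11 genes with the motif. They include all 5 measured genes with the motif whose groups were apart, and Naglu and Lamp1, whose groups overlapped. Arsa, Gaa and Atp6v0d1, whose groups also overlapped, and Glb1 carry the motif but are not shown. Each runs 5′ to 3′ on the gene's strand and ends before the start site, with the cores in capitals.
Gla (α-galactosidase A), chrX:134601179-134601247, minus strand: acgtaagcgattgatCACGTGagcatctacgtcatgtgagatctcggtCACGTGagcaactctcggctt
Lgmn (legumain), chr12:102439121-102439156, minus strand: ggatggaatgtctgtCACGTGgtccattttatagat
Naglu (α-N-acetylglucosaminidase), chr11:101070006-101070041, plus strand: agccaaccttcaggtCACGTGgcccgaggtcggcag
Lamp1 (lysosomal membrane glycoprotein), chr8:13159085-13159160, plus strand: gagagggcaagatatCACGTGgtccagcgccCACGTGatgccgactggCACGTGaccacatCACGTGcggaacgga
Mcoln1 (mucolipin calcium channel), chr8:3500433-3500494, plus strand: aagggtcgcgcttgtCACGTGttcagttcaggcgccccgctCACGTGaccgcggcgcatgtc
Atp6v0b (proteolipid of V0), chr4:117887330-117887380, minus strand: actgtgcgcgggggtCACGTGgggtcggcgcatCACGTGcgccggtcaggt
Atp6v1a (catalytic subunit of V1), chr16:44139370-44139405, minus strand: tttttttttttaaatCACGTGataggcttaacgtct

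Most of the lysosomal genes read lower in Tg, by small amounts, and none passed the test. Of the 38 measured genes 33 were lower and 5 higher, with a median difference of -0.12, against -0.014 over all rows and -0.019 over the 12788 genes whose row lay above the median signal. In 16 of the 38 genes (42.1%) the 3 Tg arrays all lay below the 3 WT arrays, and in 0 all above. Over all rows 9.35% lay apart in this way with Tg lower and 7.36% with Tg higher, and among the 12788 brighter genes 12.8% and 11.0%. The share of lysosomal genes apart downward was above each of these background shares, and the share apart upward below them. The genes were chosen with earlier results of these data known, so these shares describe the list and do not test it. The brighter genes start at a mean signal of 2.67, and most of the 38 genes lie well above it.

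None of the 38 genes passed limma's adjusted threshold of 0.05, and neither did any other row (0 of 41345, or 0%); their adjusted p lay between 0.41 and 0.95. A variance model with trend and robust estimation also gave 0 rows. At an unadjusted p under 0.05 there were 3 of the 38 genes, Gusb, Lgmn and Atp6v0b, all lower. The background at that level was 5.88% of all rows lower and 4.43% higher, and 6.22% and 7.30% of the brighter genes, so this count is near the background. The differences ran from -0.38 to 0.12, and the 95% intervals of all 38 genes together from -0.83 to 0.44, so no interval reached a change of 1 log2 unit.

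Of the scalings tried, centring made the shift smaller and quantile normalization did not. After subtraction of the array medians, the median of all rows moved from -0.014 to 0.051. The lysosomal genes then read lower in 27 and higher in 11, with a median of -0.059. The groups lay apart downward in 6 of them (15.8%), against 5.49% of all rows. The share among the brighter genes, to which all 38 belong, was not computed after centring. Before centring it was above that of all rows (12.8% against 9.35%). Quantile normalization left 33 lower and 5 higher, with a median of -0.13, at a median of all rows of 0.0077. It left 15 apart downward (39.5%), against 7.74% of all rows. With only WT 1, Tg 1 and Tg 3, 32 of the 38 were lower, with a median of -0.13. In a whole tissue, fewer cells of a type and less RNA per cell cannot be told apart.

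**Figure D1:**
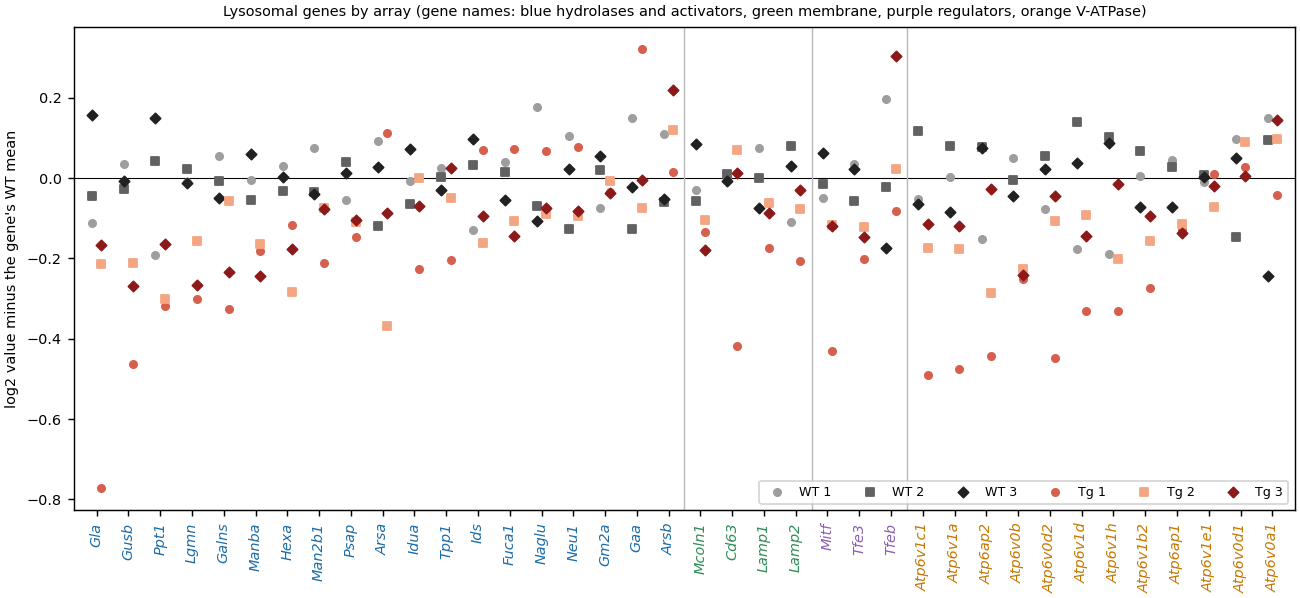
Each point is 1 array's log2 value minus the gene's WT mean, for the 38 measured genes on the horizontal axis, grouped by class and sorted by difference; WT arrays are grey to black and Tg arrays red. Tg 1 was the lowest array in 22 of the 38 genes.

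Among the glycosidases, which strip sugars from glycoproteins, glycolipids and glycosaminoglycans, 9 of 10 measured genes were lower in Tg, with a median of -0.11, and 5 had groups apart. Gusb encodes β-glucuronidase, which removes glucuronic acid from glycosaminoglycans. Its WT arrays read 9.99, 9.93 and 9.95 and its Tg arrays 9.49, 9.74 and 9.68, each group in the order of its replicate numbers, as in all values by array. The WT arrays lay close together and all Tg arrays below them, a difference of -0.31 ± 0.11 (1.24-fold, 95% interval -0.57 to -0.061, limma adjusted p = 0.41). With only WT 1, Tg 1 and Tg 3 it was -0.40.

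Gla, α-galactosidase A, which acts on globotriaosylceramide, had the largest difference in size of the 38 genes, -0.38 ± 0.19. It read 8.53, 8.60 and 8.80 in the WT arrays and 7.87, 8.43 and 8.48 in the Tg arrays. The groups were apart, but Tg 1 lay well below the rest, and without it the difference was -0.19. Hexa, the α subunit of β-hexosaminidase A, which cuts ganglioside, read 9.75, 9.68 and 9.72 in WT and 9.60, 9.43 and 9.54 in Tg (-0.19 ± 0.095). Manba, β-mannosidase, read 7.02, 6.97 and 7.09 in WT and 6.85, 6.87 and 6.78 in Tg (-0.20 ± 0.091). Man2b1, the lysosomal α-mannosidase, also had groups apart, at -0.12 ± 0.097. In Man2b1 the gap between the groups was small, with Tg 2 and Tg 3 just below WT 2 and WT 3, and without Tg 1 the difference was -0.076.

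The other glycosidases overlapped between the groups. Naglu, which removes N-acetylglucosamine from heparan sulfate, read 7.57, 7.33 and 7.29 in WT and 7.46, 7.31 and 7.32 in Tg (-0.033 ± 0.12). Neu1, the sialidase, differed by -0.032 ± 0.11, the fucosidase Fuca1 by -0.060 ± 0.10 and the iduronidase Idua by -0.098 ± 0.11, or by -0.034 without Tg 1. Gaa, acid α-glucosidase, which breaks down glycogen, was the only glycosidase with a higher mean in Tg. It read 8.25, 7.97 and 8.08 in WT and 8.42, 8.02 and 8.10 in Tg (0.080 ± 0.14), and without Tg 1 the difference was -0.040. The intervals of these 5 genes ran from -0.35 to 0.42.

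The 4 sulfatases, which remove sulfate groups before the sugars can be cut, were lower in 3 and higher in 1. Galns, which acts on keratan sulfate, read 7.67, 7.61 and 7.57 in WT and 7.29, 7.56 and 7.38 in Tg. All 3 Tg arrays were lower (-0.21 ± 0.11). Arsb, which acts on dermatan sulfate, read 8.38, 8.21 and 8.22 in WT and 8.28, 8.39 and 8.49 in Tg, so its groups overlapped with the higher mean in Tg (0.12 ± 0.11). A second, dimmer row of Arsb read higher in Tg by 0.44, and the mean of both rows gave 0.28. With only WT 1, Tg 1 and Tg 3 the difference was 0.0069. Arsa, the sulfatase of the glycolipid sulfatide, differed by -0.11 ± 0.15, with Tg 2 the lowest array at 5.35. Without Tg 2 its difference was 0.012. Ids, iduronate sulfatase, differed by -0.061 ± 0.11, and by 0.12 with only WT 1, Tg 1 and Tg 3.

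Psap and Gm2a encode activator proteins that lift lipids out of membranes for the hydrolases. Psap, the precursor of the saposins, read 11.81, 11.90 and 11.87 in WT and 11.71, 11.75 and 11.76 in Tg. The groups were apart by a small margin (-0.12 ± 0.089, 1.09-fold). Gm2a, the ganglioside activator, ranged from 9.93 to 10.06 in WT, and all 3 Tg arrays lay inside that range (-0.026 ± 0.091).

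The proteases Lgmn and Tpp1 and the thioesterase Ppt1 all read lower, with a median of -0.24. Lgmn, legumain, an asparaginyl endopeptidase that also processes cathepsins, read 10.77, 10.80 and 10.77 in WT and 10.48, 10.62 and 10.51 in Tg. WT arrays were nearly equal and Tg arrays all lower, by -0.24 ± 0.092 (1.18-fold, 95% interval -0.46 to -0.020, limma adjusted p = 0.46). Ppt1, which takes palmitate off proteins, read 8.95, 9.18 and 9.29 in WT and 8.82, 8.84 and 8.98 in Tg (-0.26 ± 0.12). Tg 3 lay above WT 1, so its groups overlapped, and with only WT 1, Tg 1 and Tg 3 the difference was -0.049. Tpp1, tripeptidyl peptidase, differed by -0.077 ± 0.10 with Tg 3 level with WT 1 at 11.01, and by -0.013 without Tg 1.

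**Figure D2:**
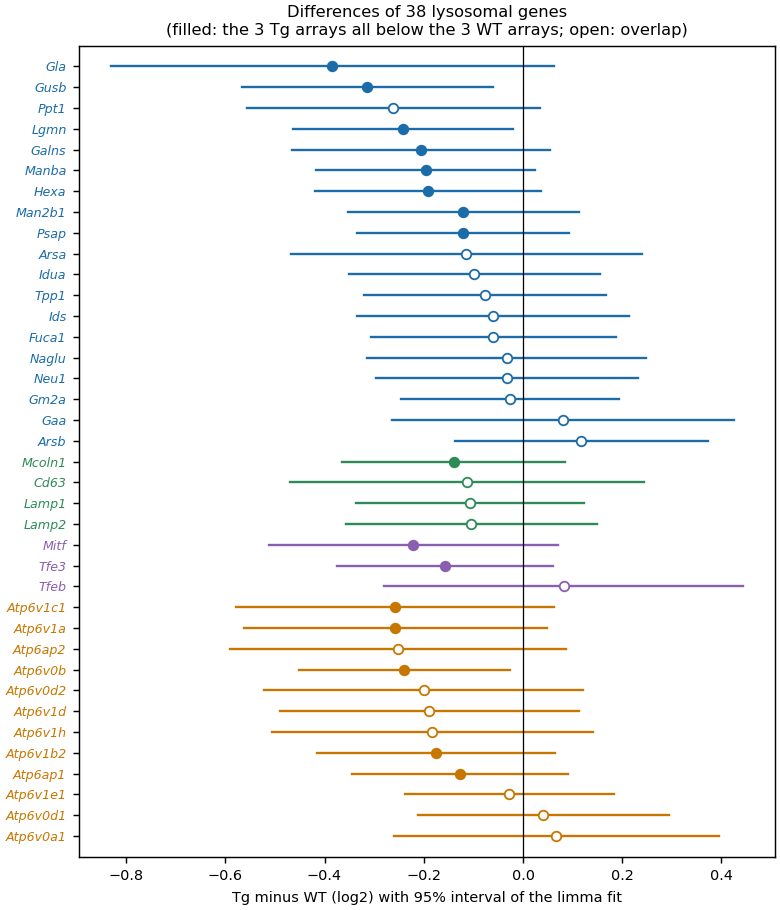
Differences Tg minus WT on the log2 scale for the 38 genes, with 95% intervals of the limma fit; filled points mark genes whose 3 Tg arrays all lay below the 3 WT arrays. Most points lie left of 0, and the intervals of Gusb, Lgmn and Atp6v0b alone do not reach it.

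All 4 membrane proteins were lower, with differences between -0.14 and -0.10, and every 95% interval included 0. Mcoln1, a channel that lets calcium out of the lysosome, read 7.64, 7.62 and 7.76 in WT and 7.54, 7.57 and 7.49 in Tg, the only member of this class with groups apart (-0.14 ± 0.094). Lamp1, whose promoter stretch holds 4 E-box cores, read 10.80, 10.73 and 10.66 in WT and 10.56, 10.67 and 10.64 in Tg (-0.11 ± 0.096). Lamp2, which also serves chaperone-mediated autophagy, differed by -0.10 ± 0.11, by -0.053 without Tg 1 and by -0.0072 with only WT 1, Tg 1 and Tg 3. Without WT 1 the difference of Lamp1 was -0.070. Cd63, a tetraspanin of late endosomes, read 10.11, 10.13 and 10.11 in WT and 9.70, 10.19 and 10.13 in Tg. It was low in Tg 1 only, and without that array its difference was 0.041 and the median of the class -0.064 in place of -0.11.

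Of the 3 transcription factors 2 read lower. Mitf, which also acts in mast cells and melanocytes, read 8.21, 8.25 and 8.32 in WT and 7.83, 8.14 and 8.14 in Tg (-0.22 ± 0.12). Tfe3 read 7.57, 7.48 and 7.56 in WT and 7.33, 7.41 and 7.39 in Tg (-0.16 ± 0.090). Both had groups apart, and without Tg 1 the difference of Mitf was -0.12. Tfeb gave a low signal, between 3.09 and 3.57, with overlapping groups (0.082 ± 0.15, 95% interval -0.28 to 0.44). These factors are controlled mainly by phosphorylation and entry into the nucleus, which RNA levels do not show.

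Mast cell markers were also lower in Tg. All 6 (Cma1, Mcpt4, Tpsb2, Cpa3, Kit and Fcer1a) were lower in Tg, with a median of -1.41. The groups lay apart downward in all 6, against 12.8% of the 12788 brighter genes. The summed linear signal of the 6 markers was 1227, 2345 and 1941 in WT and 838, 763 and 593 in Tg. Cma1, Mcpt4, Tpsb2 and Cpa3 differed by -1.58, -1.58, -1.51 and -1.31. Kept to WT 1, Tg 1 and Tg 3, these differences were -1.11, -0.84, -0.86 and -0.86. Among the Tg arrays, Mitf read lowest in Tg 1, where the mast cell sum was highest. Among the WT arrays, Mitf and the mast cell sum were both lowest in WT 1. The part of the mast cell markers in the difference of Mitf was not tested.

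Of the 33 measured genes with a promoter window, the 10 with the E-box core had a median difference of -0.13 and the 23 without it -0.11. Groups lay apart downward in 5 of the 10 and in 8 of the 23, against 12.8% of other genes above the median signal, both with and without the core. Gla, Lgmn, Mcoln1, Atp6v0b and Atp6v1a, whose stretches are printed above, had groups apart, while Naglu and Lamp1 did not. Among other genes above the median signal the medians were -0.030 with the core (1143 genes) and -0.018 without it (8872 genes).

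Of the 12 V-ATPase genes 10 were lower in Tg, with a median of -0.19, and 5 had groups apart. Atp6v0b, a proteolipid of the V0 ring that carries protons through the membrane, had groups apart with little spread in either. It read 9.04, 8.99 and 8.95 in WT and 8.74, 8.77 and 8.75 in Tg. The lowest WT array was above the highest Tg array, a difference of -0.24 ± 0.088 (1.18-fold, 95% interval -0.45 to -0.027, limma adjusted p = 0.45). It was -0.23 without Tg 1 and -0.30 with only WT 1, Tg 1 and Tg 3.

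The 6 V1 genes among the 38 were all lower, with differences between -0.26 and -0.027. Of the V1 genes outside them, Atp6v1e2 (0.046) and Atp6v1g3 (0.21), named after their values were seen, were higher. Both gave low signals, of at most 3.14 in any array. Atp6v1g1 (-0.24 ± 0.12, groups apart) and Atp6v1g2 (-0.21 ± 0.17), also chosen afterwards, gave brighter signals and were lower. Dimmer rows of Atp6v1g1 read higher in Tg by 0.30 and 0.36. Atp6v1a, the catalytic subunit, read 9.86, 9.94 and 9.78 in WT and 9.38, 9.68 and 9.74 in Tg (-0.26 ± 0.13). Atp6v1c1, which links the 2 sectors, read 9.03, 9.20 and 9.01 in WT and 8.59, 8.91 and 8.97 in Tg (-0.26 ± 0.13). In both, Tg 1 lay lowest, and without it the differences were -0.15 and -0.14. Atp6v1b2, the other ATP-binding subunit, had groups apart at -0.18 ± 0.10. A second, dimmer row of this gene read higher in Tg by 0.22, with Tg 2 at 7.199 and the other arrays between 6.06 and 6.58, and the mean of both rows gave 0.020. The rotor subunit Atp6v1d (-0.19 ± 0.13) and the regulatory subunit Atp6v1h (-0.18 ± 0.13) overlapped. Without Tg 1 they differed by -0.12 and -0.11, and with only WT 1, Tg 1 and Tg 3 by -0.061 and 0.017. Atp6v1d differed by -0.12 without WT 2. Atp6v1e1, a stalk subunit, lay between 8.83 and 8.91 in all 6 arrays (-0.027 ± 0.088).

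Of the accessory proteins, which help assemble the pump, Atp6ap1 read 9.80, 9.79 and 9.69 in WT and 9.63, 9.64 and 9.62 in Tg (-0.13 ± 0.090, groups apart). Atp6ap2, also known as the prorenin receptor, read 8.52, 8.75 and 8.75 in WT and 8.23, 8.39 and 8.65 in Tg, with overlap (-0.25 ± 0.14). Its difference was -0.16 without Tg 1 and -0.082 with only WT 1, Tg 1 and Tg 3.

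The V0 sector has subunits that come in isoforms, and these are given by isoform. Of the a isoforms, Atp6v0a1 read 10.48, 10.43 and 10.09 in WT and 10.29, 10.43 and 10.48 in Tg (0.067 ± 0.14), and -0.055 without WT 3. Tcirg1, the a3 isoform of osteoclasts and macrophages, read 9.05, 9.11 and 9.16 in WT and 8.50, 8.80 and 8.84 in Tg. All Tg arrays lay below all WT arrays, by -0.40 ± 0.12 (1.32-fold, limma adjusted p = 0.39), and by -0.29 without Tg 1. Atp6v0a2, named here after its values were seen, differed by -0.0037 ± 0.13. Whether the isoforms differ from each other was not tested.

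Of the d isoforms, the widely expressed Atp6v0d1 overlapped between the groups (0.041 ± 0.11). Atp6v0d2, the isoform of osteoclasts and lipid-laden macrophages, read 10.94, 11.07 and 11.04 in WT and 10.57, 10.91 and 10.97 in Tg (-0.20 ± 0.13). Only Tg 1 lay far below the WT arrays, and without it the difference was -0.076. Of the e isoforms, Atp6v0e2 read 6.03, 5.98 and 5.68 in WT and 6.70, 6.42 and 6.69 in Tg. It was higher in all 3 Tg arrays, by 0.71 ± 0.14 (1.63-fold, limma adjusted p = 0.33). The difference was 0.67 with only WT 1, Tg 1 and Tg 3. Atp6v0e, chosen after its values were seen, differed by 0.065 ± 0.095. The epididymal clear cell isoforms Atp6v1b1 and Atp6v0a4 read at most 2.37 in any array, Tg 2 included.

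**Figure D3:**
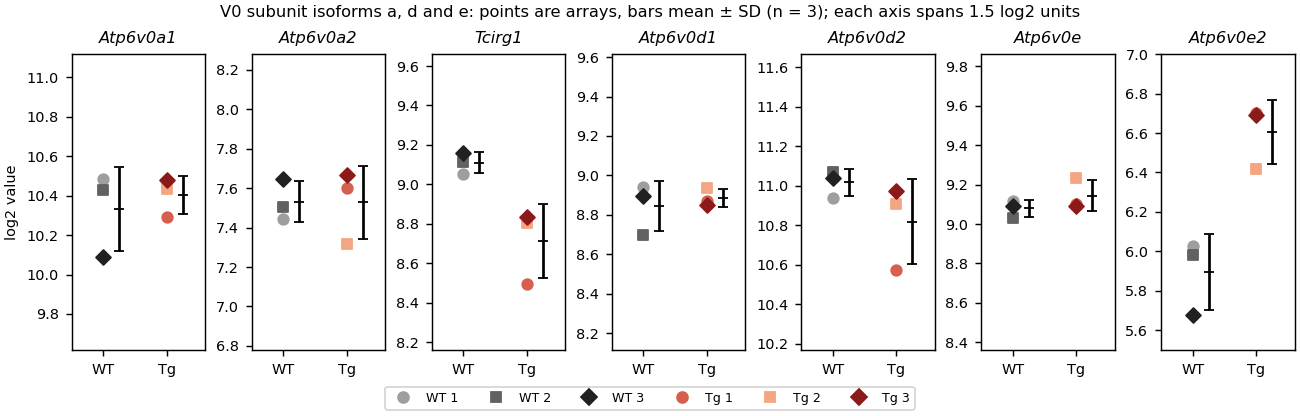
Log2 values of the V0 subunit isoforms a, d and e by group, 1 point per array with mean ± SD (n = 3); each vertical axis spans the same 1.5 log2 units at its own level. Tcirg1 was lower and Atp6v0e2 higher in all 3 Tg arrays, and the other 5 overlapped.

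The classes were compared by array. For each list, a gene's values were set relative to its mean over the 6 arrays and averaged. The 19 hydrolases and activators read 0.078, 0.030 and 0.077 in WT and -0.073, -0.065 and -0.046 in Tg. All Tg arrays were low by a similar amount. The 12 V-ATPase genes read 0.049, 0.13 and 0.049 in WT and -0.19, -0.043 and 0.0079 in Tg, so the groups were apart but Tg 1 carried most of the distance. The 4 membrane proteins read 0.041, 0.067 and 0.066 in WT and -0.18, 0.014 and -0.012 in Tg, with the same low array.

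The median difference of the V-ATPase genes was -0.19, against -0.11 for the hydrolases and -0.11 for the membrane proteins. Without Tg 1 it was -0.12 for the V-ATPase and -0.13 for the hydrolases. The level of the hydrolases minus that of the V-ATPase within an array was 0.028, -0.096 and 0.027 in WT and 0.12, -0.021 and -0.054 in Tg. These ranges overlapped, so these 2 classes were not separated beyond the spread between arrays. The membrane proteins were not compared in this way. Tg 1 was the lowest array in 8 of the 12 V-ATPase genes and in 9 of the 19 hydrolases, against 18.5% of all rows.

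**Figure D4:**
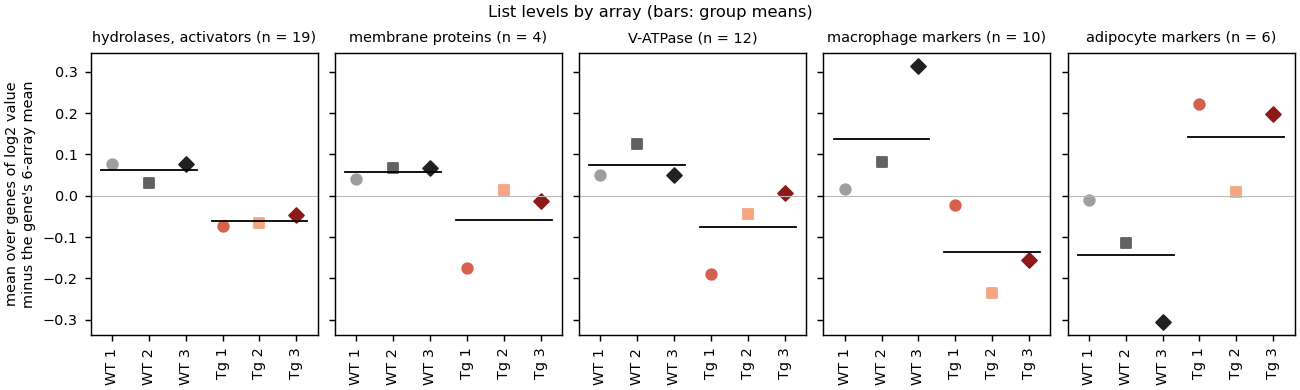
Mean level of each gene list by array, as log2 value minus the gene's mean over the 6 arrays, with bars for the group means. The hydrolases were low in all 3 Tg arrays, the V-ATPase and membrane genes lowest in Tg 1, and the adipocyte markers high in Tg.

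Markers of other cell types also differed between the groups. Of 10 macrophage markers 9 were lower in Tg, with a median of -0.37. In 7 of the 10 the groups lay apart downward and in 1 upward, against 12.8% and 11.0% of the 12788 brighter genes. Their summed linear signal ran from 8577 to 9321 in WT and from 7474 to 7743 in Tg. Adgre1, a surface receptor gene that marks mouse macrophages, was lower by -0.45 ± 0.11 and Tyrobp by -0.29 ± 0.11. C1qc was lower by -0.47 ± 0.14, and by -0.22 with only WT 1, Tg 1 and Tg 3. Cd163, a scavenger receptor of resident macrophages, was higher by 0.64 ± 0.14 with groups apart. The 38 lysosomal genes summed to between 27974 and 28702 in WT and between 24188 and 26695 in Tg. By array their level was 0.067, 0.064 and 0.062 in WT and -0.13, -0.046 and -0.017 in Tg. Of the Tg arrays, Tg 1 was lowest for the lysosomal genes and highest for the macrophage markers.

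Lipid-associated macrophage and osteoclast-like markers were lower in 5 of 7, with a median of -0.15. Ctsk differed by -0.61 ± 0.16 and Trem2 by -0.25 ± 0.10, while Acp5, a lysosomal acid phosphatase, was higher by 0.37 ± 0.12 with groups apart. This list was lowest in Tg 1 at -0.32, as the V-ATPase was, with 0.031 and 0.088 in Tg 2 and Tg 3 and 0.027 to 0.12 in WT. The 6 adipocyte markers were all higher, with a median of 0.27. Their summed linear signal ran from 13907 to 15648 in WT and from 15914 to 17714 in Tg. All 4 endothelial markers were higher too, with a median of 0.33. Among them Erg differed by 0.55 ± 0.19 with groups apart, and by 0.27 with only WT 1, Tg 1 and Tg 3. The 11 measured epididymal markers summed to 1278 in Tg 2 and to between 30.4 and 39.1 in the other 5 arrays. None of these markers passed the threshold in limma, and their part in the lysosomal differences was not tested.

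Other genes of the lysosome that were not among the 38 were read from lists of the pathway. Of 20 further lysosomal membrane proteins 15 were lower and 5 higher in Tg, with a median of -0.13, and 10 lay apart downward and 2 upward. Over all rows 9.35% lay apart downward and 7.36% upward, and among the 12788 brighter genes 12.8% and 11.0%. Slc11a1, the metal transporter of phagocyte lysosomes, read 10.25, 10.48 and 10.49 in WT and 9.95, 9.93 and 10.03 in Tg (-0.43 ± 0.11), and differed by -0.26 with only WT 1, Tg 1 and Tg 3. Tpcn2, an ion channel of the lysosome, read 8.19, 8.12 and 8.04 in WT and 7.59, 7.76 and 7.72 in Tg (-0.43 ± 0.10). Cln3 differed by -0.29 ± 0.10. In all 3 genes the groups were apart. Cd164, a sialomucin, went the other way and read 9.87, 9.77 and 9.88 in WT and 10.16, 10.11 and 10.10 in Tg (0.29 ± 0.091).

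Of 20 further soluble enzymes and cofactors 13 were measured. 8 were lower and 5 higher, with a median of -0.095. Pla2g15, the lysosomal phospholipase, was lower by -0.29 ± 0.094, but higher by 0.59 in a dim second row. Smpd1, acid sphingomyelinase, was higher by 0.32 ± 0.13, and by 0.13 with only WT 1, Tg 1 and Tg 3. Of 13 further V-ATPase subunits 8 were lower and 5 higher, with a median of -0.046, and 5 of the 13 lay below the median signal of the array. None of the genes of these 3 lists, of 20, 13 and 13 measured genes, passed over all rows. At an unadjusted p under 0.05, 6 were lower and 3 higher, beside 5.88% and 4.43% of all rows.

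Sorting and signalling genes showed no common direction. Of 12 genes that tag, sort or activate hydrolases 6 were lower and 6 higher. Sort1, sortilin, a sorting receptor, read 9.50, 9.33 and 9.24 in WT and 9.85, 9.65 and 9.65 in Tg (0.36 ± 0.12). The mannose-6-phosphate receptor genes M6pr (-0.23 ± 0.10) and Igf2r (-0.25 ± 0.12), named after their values were seen, both had Tg arrays below WT arrays. Of 17 genes of mTORC1 control at the lysosome 11 were lower and 6 higher. Rragd, a Rag GTPase gene, differed by -0.58 ± 0.16, Fnip2, a partner of folliculin, by -0.33 ± 0.13, and Tsc2, an inhibitor of mTORC1, by 0.28 ± 0.12. With only WT 1, Tg 1 and Tg 3 the difference of Tsc2 was 0.077. Of 20 autophagy genes 8 were lower and 12 higher, with a median of 0.034. Map1lc3a, an LC3 gene of the autophagosome membrane, read 5.55, 5.23 and 5.17 in WT and 6.09, 5.68 and 5.75 in Tg (0.52 ± 0.16). 0 genes of these lists, of 12, 17 and 20 genes, passed in limma. Unadjusted p lay under 0.05 for 2 lower and 3 higher genes, beside 5.88% and 4.43% of all rows. These counts are near the background.

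**Figure D5:**
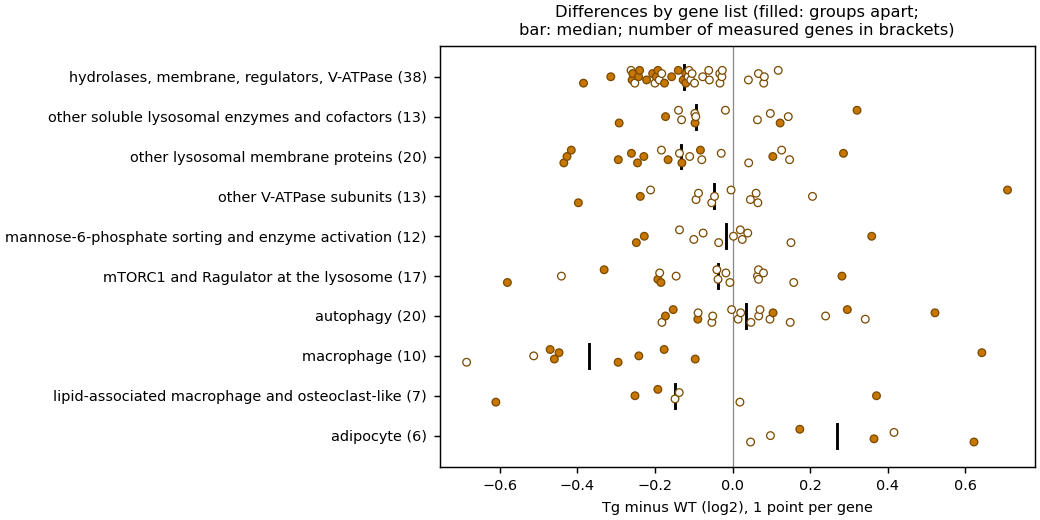
Differences Tg minus WT on the log2 scale, 1 point per gene, for the lysosomal genes, the pathway lists and the cell type markers; filled points have groups apart, and bars are medians. The lysosomal genes and the other membrane proteins centre on -0.12 and -0.13, the autophagy genes on 0.034, and the macrophage markers on -0.37.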

How the data were processed

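RNA was hybridised after biotin labelling with an Affymetrix whole-transcript kit from 400 ng total RNA, per the labels' protocols. Deposited values were log2 signals, and RMA and limma were named by the authors, per the submitters' processing notes. The genome build, tool versions and settings are not given in the sources used here. RMA normalizes between arrays, so a change in total RNA cannot be seen, and it compresses differences between low signals. Of 41345 rows, 23521 named 1 gene, 1814 several and 16010 none. Array medians lay between 2.64 and 2.75, and Pearson's r between arrays, across genes, between 0.979 and 0.990. The number of arrays limits the precision.

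Tg was compared with WT over all rows in R 4.3.3 by lmFit and eBayes of limma 3.58.1, 2-sided and without covariate, with Benjamini-Hochberg adjustment over all rows and a threshold of 0.05. The procedure was tested on simulated data. No covariate was used because no pairing by replicate number was seen. Groups were called apart where all 3 arrays of a group lay on one side of the other group's. Lists were described by counts and medians, without set tests. Summed signals are sums of 2 to the power of the log2 values. All 38 measured genes are named. From each other list, up to 4 genes with an unadjusted p under 0.05 are named, or else the 2 with the smallest p, and others are named as chosen afterwards. The members and lists were chosen with earlier results of these data known. Alternatives left out each array, added the replicate block, centred or quantile-normalized the arrays, filtered dim rows, averaged a gene's rows, changed the variance model (statmod 1.5.0) and kept only WT 1, Tg 1 and Tg 3.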

Additional observations from a re-analysis of the deposited data

How the results depend on the processing

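All 13 alternatives gave 0 rows past the threshold in limma, with adjusted p of the 38 genes of at least 0.27 in each, and the count of genes lower in Tg ran from 27 to 34. Centring the arrays on their medians added 0.065 to every difference. It moved the median of all 38 genes to -0.059 and that of the hydrolases to -0.049, and the shift alone takes the genes nearest below 0 to the other sign: Naglu 0.032, Neu1 0.033, Ids 0.0038, Fuca1 0.0055, Gm2a 0.039 and Atp6v1e1 0.038. It also turned the rows with an unadjusted p under 0.05 from 57.05% lower to 35.3% lower. At that level 3 of the 38 genes stood in the deposited scaling, 0 after centring, 8 with trend and robust variance and 0 without Tg 1. In only WT 1, Tg 1 and Tg 3 the sign turned for Ids (0.12), Gm2a (0.039), Tfeb (-0.086), Atp6v0a1 (-0.098), Atp6v0d1 (-0.081), Atp6v1e1 (0.0040), Atp6v1h (0.017) and the epididymal gene Spag11b (-0.049). The mean of a gene's rows gave 0.020 for Atp6v1b2, 0.15 for Pla2g15 and 0.28 for Arsb. Leaving out each array in turn gave ranges that crossed 0 for Arsa (-0.23 to 0.012), Atp6v0a1 (-0.055 to 0.14), Atp6v0d1 (-0.032 to 0.089), Cd63 (-0.20 to 0.041), Gaa (-0.040 to 0.16), Gm2a (-0.064 to 0.00083), Naglu (-0.086 to 0.056), Neu1 (-0.096 to 0.020) and Tfeb (-0.029 to 0.18). The cause was not tested. Deviations of same-numbered arrays correlated at -0.038, 0.0073 and -0.043 over all rows, so no pairing by number was seen. With 3 arrays per group this cannot show that there was none. With the replicate block 0 rows passed, the differences were the same by construction, and 4034 rows had an unadjusted p under 0.05, against 4263.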

Other observations

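Dimmer second rows of a gene often had their highest value in Tg 2. Of the 38 genes 2 had a second row, namely Arsb and Atp6v1b2, and in both Tg 2 was the highest array of that row, at 4.90 and 7.199. Of the 15 second rows of all listed genes, Tg 2 was highest in 10 and WT 2 lowest in 9. Over the whole array, Tg 2 was highest in 31.2% of 1341 dimmer rows, against 13.6% of the 1082 brightest rows of the same genes and 14.6% of 21098 genes with a single row. Among rows with a mean of 2 to 6 the shares were 41.9% of 652 dimmer rows and 15.05% of 7549 single rows. Among the 144 dimmer rows with a mean above 6, which include that of Atp6v1b2, Tg 2 was highest in 37 and WT 1 in 36. Smpd1, Sort1, Gabarap, Lpl, Npc1, Ostm1 and Atp6v1g1 were among the genes with such a row. The pattern was noticed in these values, and its cause was not tested.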
